A study of Rattus norvegicus with 9 samples.

Results

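The 6 genes described here are expressed in the proximal tubule of the kidney and belong to its machinery for taking up filtered protein (Lrp2, Cubn, Amn and Dab2) and for reabsorbing sodium, bicarbonate and water (Slc9a3 and Aqp1). They are defined by their identifiers, with no threshold on their values, though the choice was made with earlier results of these data known, and all 6 were present among the 17862 features of the files. RNA from kidney tissue, depleted of ribosomal RNA, was sequenced in 3 groups of 3 samples: hypertensive animals treated with the Chinese herbal remedy Qingda granule (QDG), hypertensive animals without it (Model) and normal animals (WT), all 6 weeks old. The labels name the brown rat, while the features carry identifiers that begin with the prefix of mouse Ensembl genes. The files give no gene names, so the symbols used here are those supplied with the 6 identifiers, and 13 further lists of kidney genes, written as symbols, could not be matched to any feature. Neither strain, cause of hypertension nor dose is given in the sources used here. Nothing there says that each sample is a separate animal, so the p-values measure only a spread between samples that could be technical.

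The proximal tubule recovers the protein that passes the glomerular filter by endocytosis at its brush border. Lrp2 (ENSMUSG00000027070) encodes megalin, a very large receptor that spans the membrane. Cubn (ENSMUSG00000026726) encodes cubilin, a receptor without a membrane-spanning segment, which amnionless, the product of Amn (ENSMUSG00000021278), anchors and brings to the cell surface. Dab2 (ENSMUSG00000022150) encodes an adaptor that links the tail of megalin to the clathrin coat. Slc9a3 (ENSMUSG00000036123) encodes NHE3, the apical sodium-hydrogen exchanger through which much of the filtered sodium and bicarbonate is recovered, and Aqp1 (ENSMUSG00000004655) encodes the water channel that lets water follow. Aqp1 is also made in descending thin limbs, in the endothelium of vasa recta and in red cells, and Dab2 is also made in other cell types, so their values in whole kidney do not belong to the proximal tubule alone. In tissue RNA of this kind, fewer cells of a type and less RNA per cell cannot be told apart.

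In the deposited values, the levels of Lrp2 and Cubn followed each other across libraries while the level of Amn did not. Lrp2 and Cubn were also the longest of the 6 features (16701 and 14935 bases) and Amn the shortest (1843 bases). Libraries differed in how levels moved with feature length, as described below, and the part of length in this contrast was not tested. Because of the contrast, the 250 bases upstream of the annotated transcription start are shown for these 3 genes. They are rat RefSeq sequences of the GRCr8 build, matched by symbol, and lie at chr3:74754536-74754785 on the minus strand for Lrp2, at chr17:81501695-81501944 on the minus strand for Cubn and at chr6:136132317-136132566 on the plus strand for Amn. Capitals mark the GC box, GGGCGG, on either strand.
Lrp2: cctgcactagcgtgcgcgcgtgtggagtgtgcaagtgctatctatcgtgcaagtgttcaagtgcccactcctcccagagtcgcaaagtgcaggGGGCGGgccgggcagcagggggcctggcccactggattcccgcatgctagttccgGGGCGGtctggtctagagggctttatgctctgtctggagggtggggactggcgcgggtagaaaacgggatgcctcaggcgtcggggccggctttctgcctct
Cubn: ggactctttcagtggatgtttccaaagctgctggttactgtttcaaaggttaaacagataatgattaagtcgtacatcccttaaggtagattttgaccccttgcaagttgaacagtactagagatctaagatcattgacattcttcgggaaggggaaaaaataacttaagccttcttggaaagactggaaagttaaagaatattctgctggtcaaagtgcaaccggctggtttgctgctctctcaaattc
Amn: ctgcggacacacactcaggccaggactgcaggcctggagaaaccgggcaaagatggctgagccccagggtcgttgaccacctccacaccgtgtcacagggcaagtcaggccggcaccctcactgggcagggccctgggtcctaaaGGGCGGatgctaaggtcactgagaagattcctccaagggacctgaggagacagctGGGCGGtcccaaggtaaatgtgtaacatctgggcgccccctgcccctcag
The stretch before Cubn held no GC box and had a GC content of 40.0%, against 64.4% before Lrp2 and 62.8% before Amn. A GC box stood in 30.5% of the 33469 upstream stretches in the table. The other words searched on both strands were the TATA box (TATAAA, in 12.9% of stretches), the E-box (CACGTG, in 5.59%), a consensus for HNF4 (CAAAGTCCA, in 0.338%) and a short site for HNF1 (GTTAAT, in 6.45%). HNF1 and HNF4 are transcription factors of the proximal tubule. None of these 4 words stood in the 3 stretches shown, which says only that these letters are not in these windows.

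Levels are given in FPKM, reads scaled to the length of the feature and to a total for the library, so they can be compared between genes as far as each gene's reads were counted equally well. If rat reads were counted on a mouse annotation, which could not be settled, levels would also vary with how well a gene's sequence matches between the species, and this limits the comparison of levels between genes. The reads recovered from the steps of the values numbered 26.8 M (WT 2) to 29.4 M (Model 1) per library over the listed features. The least covered value of the 6 genes rested on 2131 reads (Slc9a3 in Model 3), for which counting alone gives an SD of 2.17%. Aqp1 was the most abundant of the 6 with a mean of 501 FPKM over the 9 libraries, rank 76 of the 17862 features. Lrp2 averaged 101.8 FPKM, Amn 86.5, Dab2 54.9, Cubn 26.6 and Slc9a3 21.1 FPKM. Aqp1 stood first in all 9 libraries. The order of neighbours below it was less fixed: Lrp2 lay above Amn in 8 of 9 libraries, Amn above Dab2 in 8, and Cubn above Slc9a3 in 7. All 6 genes had a mean above 1 FPKM and were tested.

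**Figure D1:**
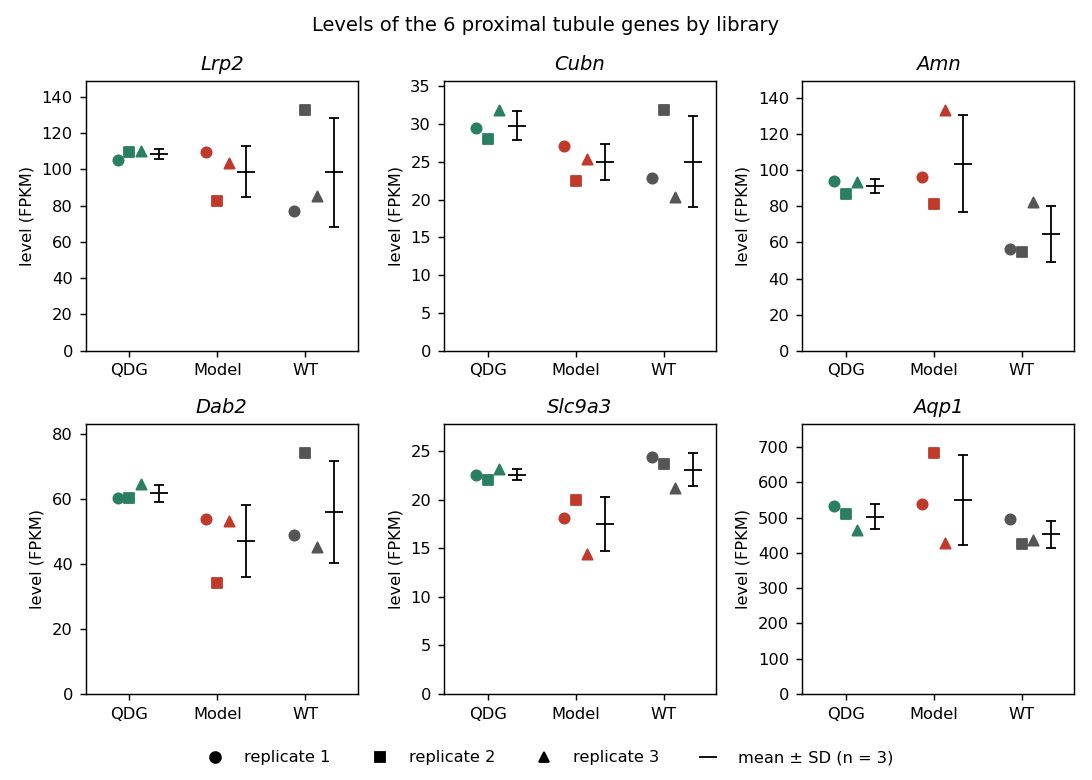
Level in FPKM of each of the 6 genes in every library, with the mean and SD of the 3 libraries of a group beside the points; symbols mark the replicate number. The QDG libraries lie close together for all 6 genes (coefficients of variation of 2.54% to 6.97%), and WT 2 is the highest WT library for Lrp2, Cubn and Dab2.

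Lrp2 stood at 105, 109.8 and 110.0 FPKM in QDG, at 109.7, 82.7 and 103.5 FPKM in Model and at 77.2, 132.7 and 85.4 FPKM in WT (replicates 1, 2 and 3 in that order here and below). WT 2 was the highest and WT 1 the lowest of all 9 libraries, so both other groups lay inside the range of WT. Cubn stood at 29.5, 28.0 and 31.9 FPKM in QDG, at 27.1, 22.4 and 25.4 FPKM in Model and at 22.9, 31.8 and 20.3 FPKM in WT. All QDG libraries lay above all Model libraries for Cubn, and WT 2 again stood well above the other WT libraries. Dab2 stood at 60.1, 60.2 and 64.6 FPKM in QDG, at 53.6, 34.2 and 53.1 FPKM in Model and at 48.7, 74.0 and 45.2 FPKM in WT. For Dab2 too, QDG lay above Model without overlap, Model 2 was the lowest library and WT 2 the highest.

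Amn stood at 93.9, 86.7 and 93.5 FPKM in QDG, at 96.2, 81.3 and 133 FPKM in Model and at 56.6, 54.8 and 82.5 FPKM in WT. All QDG libraries lay above all WT libraries, whereas Model and WT overlapped, since WT 3 reached the level of Model 2. Model 3 held the highest value of Amn. Slc9a3 stood at 22.6, 22.0 and 23.2 FPKM in QDG, at 18.1, 20.0 and 14.4 FPKM in Model and at 24.4, 23.7 and 21.2 FPKM in WT. All Model libraries lay below all libraries of both other groups, and QDG lay within the range of WT. Aqp1 stood at 533, 510.1 and 465 FPKM in QDG, at 539, 682 and 428 FPKM in Model and at 495, 425 and 436 FPKM in WT. Its groups overlapped in every comparison, and the Model libraries alone spanned nearly the whole range.

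The spread between libraries of a group was smallest in QDG. The coefficient of variation of the 6 genes had a median of 4.27% in QDG, 19.7% in Model and 24.1% in WT. Over the 12187 features that averaged 1 FPKM or more it was 7.88% in QDG, 12.4% in Model and 15.8% in WT, so the same order of groups held for the features at large. The widest spread of a gene was that of Lrp2 in WT (30.5%) and the narrowest that of Lrp2 in QDG (2.54%).

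Model was set against WT to ask what differs in hypertensive animals. None of the 6 genes passed the threshold of an adjusted p under 0.05 (limma on log2(FPKM + 1) over 12187 features, Benjamini-Hochberg), against 7.9% of all features tested, and voom on recovered reads called 0 of the 6 as well. Amn and Slc9a3 had an unadjusted p under 0.05, which 28.0% of all features had. Amn averaged 104 ± 26.8 FPKM in Model and 64.6 ± 15.5 FPKM in WT (SD, n = 3 each), 1.60 times as much. This was a log2 difference of 0.67, SE 0.20 (limma adjusted p = 0.0659). Slc9a3 averaged 17.5 ± 2.82 FPKM in Model and 23.1 ± 1.69 FPKM in WT, a log2 difference of −0.39, SE 0.12 (limma adjusted p = 0.0757). In the deposited values it was the only one of the 6 genes whose groups did not overlap (Dab2 was also lower without overlap after quantile normalization), which 28.2% of all features showed in either direction and 10.9% with Model lower.

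Both values lay near the threshold and crossed it with some choices of samples or scaling. Amn passed in the fit without WT 3 (log2 difference 0.85, limma adjusted p = 0.0256) and in the fit without Model 2 (0.82, limma adjusted p = 0.0381), and over the 18 alternatives its adjusted p ran from 0.0256 to 0.189. Slc9a3 passed in the fit without Model 2 (−0.49, limma adjusted p = 0.0439) and after quantile normalization (−0.50, limma adjusted p = 0.0493), over a range from 0.0439 to 0.209. The sign held in all 18 alternatives for both genes. Those that changed the filter, added a replicate block, fitted only the groups compared or left out a QDG library could not change the sign.

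Megalin and cubilin showed no difference that these data can resolve. Lrp2 averaged 98.6 ± 14.2 FPKM in Model and 98.4 ± 30.0 FPKM in WT, with a log2 difference of 0.03 and a 95% interval before adjustment from −0.40 to 0.46 (limma adjusted p = 0.928). Cubn averaged 25.0 ± 2.38 FPKM in Model and 25.0 ± 6.04 FPKM in WT, with a log2 difference of 0.02 and an interval from −0.33 to 0.37 (limma adjusted p = 0.949). The sign of both differences turned with the scaling, to −0.19 for Lrp2 and −0.12 for Cubn after quantile normalization. Dab2 averaged 47.0 ± 11.1 FPKM in Model and 56.0 ± 15.7 FPKM in WT (log2 difference −0.24, interval from −0.71 to 0.22, limma adjusted p = 0.474), and the difference was −0.03 without WT 2 and also without Model 2. Aqp1 averaged 549.9 ± 128 FPKM in Model and 452 ± 37.5 FPKM in WT (log2 difference 0.26, interval from −0.13 to 0.65, limma adjusted p = 0.358). The Aqp1 difference was 0.01 after quantile normalization, 0.09 without Model 2 and 0.43 without Model 3. The median log2 difference was 0.03 over the 6 genes and 0.02 over all features tested.

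**Figure D2:**
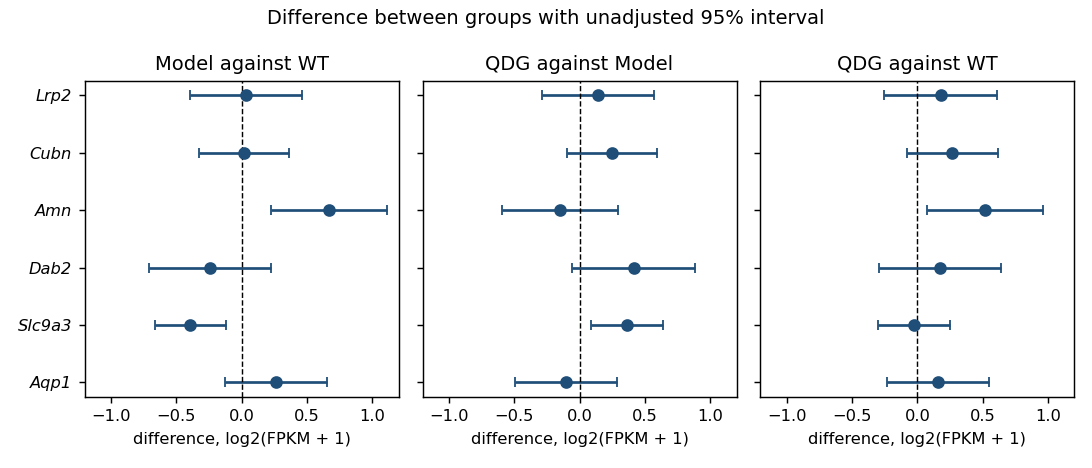
Difference in log2(FPKM + 1) between groups for each of the 6 genes (points) with its 95% interval before adjustment (bars), from limma over all 9 libraries; the dashed line marks no difference. The interval of Amn excludes 0 in Model against WT and in QDG against WT, and that of Slc9a3 in Model against WT and in QDG against Model, but none of these differences passed after adjustment over 12187 features.

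Set against Model, QDG addresses what treatment changed in hypertensive animals. None of the 6 genes passed (limma and voom), and neither did any other feature (0.0% of 12187). Slc9a3 was the only one of the 6 with an unadjusted p under 0.05, which 13.9% of features had. It averaged 22.6 ± 0.598 FPKM in QDG and 17.5 ± 2.82 FPKM in Model, 1.29 times as much, a log2 difference of 0.36, SE 0.12 (limma adjusted p = 0.304). Dab2 averaged 61.6 ± 2.53 FPKM in QDG and 47.0 ± 11.1 FPKM in Model, a log2 difference of 0.41, SE 0.21 (limma adjusted p = 0.405). Cubn averaged 29.8 ± 1.94 FPKM in QDG and 25.0 ± 2.38 FPKM in Model, a log2 difference of 0.25, SE 0.16 (limma adjusted p = 0.496). For these 3 genes all QDG libraries lay above all Model libraries, which 10.4% of all features showed in this direction and 26.7% in either.

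For the other 3 genes the groups overlapped in the deposited values. Lrp2 averaged 108 ± 2.76 FPKM in QDG and 98.6 ± 14.2 FPKM in Model (log2 difference 0.14, interval from −0.29 to 0.57, limma adjusted p = 0.764). Amn averaged 91.3 ± 4.05 FPKM in QDG and 104 ± 26.8 FPKM in Model (log2 difference −0.15, interval from −0.59 to 0.29, limma adjusted p = 0.761). Aqp1 averaged 503 ± 35.0 FPKM in QDG and 549.9 ± 128 FPKM in Model (log2 difference −0.11, interval from −0.50 to 0.28, limma adjusted p = 0.809). After quantile normalization the differences of Amn and Aqp1 were 0.04 and 0.06, on the other side of 0, and that of Lrp2 was 0.33, with QDG above Model without overlap. Without Model 2 the difference of Lrp2 was 0.02. The median log2 difference was 0.20 over the 6 genes and −0.02 over all features tested.

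Model 2 and Model 3 carried part of these differences. Without Model 2, the lowest library for Lrp2, Cubn and Dab2 within Model, the log2 difference of Dab2 was 0.20 and that of Cubn 0.17. Without Model 3, the lowest library for Slc9a3, the difference of Slc9a3 was 0.24 (limma adjusted p = 0.614). Leaving out a Model library also gave larger values: 0.46 for Slc9a3 without Model 2, and 0.52 for Dab2 and 0.31 for Cubn without Model 1. The comparison of QDG with Model and that of Model with WT share the Model libraries, so a low Model value of Slc9a3 enters both with opposite sign. The values of Slc9a3 side by side were a log2 difference of −0.39 for Model against WT and 0.36 for QDG against Model.

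QDG was also set against WT, to see what still set treated animals apart from normal ones. None of the 6 genes passed (limma and voom), against 2.47% of all features tested, and Amn alone had an unadjusted p under 0.05, which 21.3% of features had. Amn averaged 91.3 ± 4.05 FPKM in QDG and 64.6 ± 15.5 FPKM in WT, 1.41 times as much, a log2 difference of 0.52, SE 0.20 (limma adjusted p = 0.177). Its groups did not overlap, as was the case for 27.7% of all features in either direction and 15.2% with QDG higher, but they overlapped after quantile normalization. Slc9a3 averaged 22.6 ± 0.598 FPKM in QDG and 23.1 ± 1.69 FPKM in WT, with a log2 difference of −0.03 and a 95% interval before adjustment from −0.30 to 0.25 (limma adjusted p = 0.9197). Lrp2, Cubn, Dab2 and Aqp1 had log2 differences of 0.18, 0.27, 0.17 and 0.15 in that order, with limma adjusted p-values from 0.354 (Cubn) to 0.676 (Dab2), and their groups overlapped. Single WT libraries moved these values: without WT 1 the difference was 0.02 for Lrp2 and 0.09 for Dab2, without WT 2 it was 0.41 for Lrp2, 0.45 for Cubn and 0.39 for Dab2, and without WT 3 it was 0.10 for Lrp2, 0.13 for Cubn and 0.04 for Dab2. The median log2 difference was 0.17 over the 6 genes, against −0.0012 over all features tested.

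Across the 9 libraries, in the deposited values, the megalin, cubilin and Dab2 transcripts followed each other more closely than the others. WT 2 was the highest and Model 2 the lowest library of its group for all 3. The ratio of Lrp2 to Cubn, both per length, lay between 3.37 and 4.21 in all libraries, with an SD of 0.12 on the log2 scale, while log2 FPKM had an SD of 0.25 for Lrp2 and 0.23 for Cubn. The log2 ratios of Lrp2 and of Cubn to Dab2 had SDs of 0.18 and 0.17, and those of the other 12 pairs 0.29 (Cubn and Slc9a3) to 0.60 (Amn and Slc9a3). By Pearson's r of log2(FPKM + 1) over the 9 libraries, Cubn ranked 98 and Dab2 159 in likeness to Lrp2 among the 6665 other features that averaged 5 FPKM or more, so many other features were as much or more alike. Amn ranked 3151, Slc9a3 3753 and Aqp1 5622. In likeness to Cubn, its partner Amn ranked 3489. The ratio of Cubn to Amn was 0.314, 0.324 and 0.341 in QDG, 0.282, 0.276 and 0.191 in Model and 0.405, 0.581 and 0.246 in WT.

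**Figure D3:**
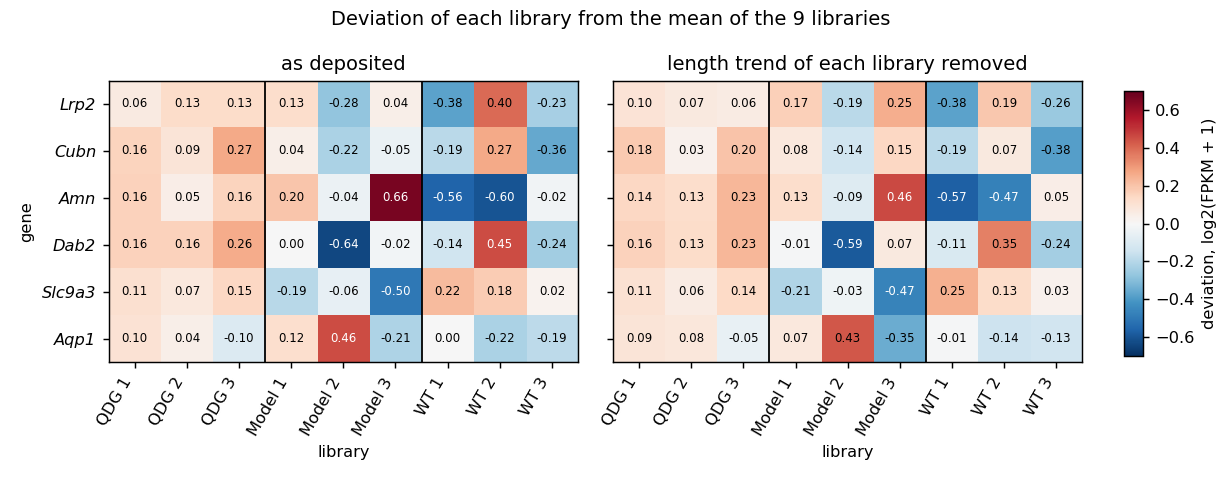
Deviation of each library from the mean of the 9 libraries for each gene, in log2(FPKM + 1), with the deposited values on the left and with each library's trend over feature length taken out on the right. In the deposited values Lrp2, Cubn and Dab2 are high together in WT 2 and low together in Model 2; with the length trend taken out, WT 2 stands at 0.19 for Lrp2 and 0.07 for Cubn, below Model 3 for both. Amn is highest in Model 3 and lowest in WT 1 and WT 2, and Slc9a3 is lowest in Model 3.

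Feature length moved with some of these values. The deviation of a library from the mean was related to length across features, with a Spearman's rho of 0.37 in WT 2, where long features stood high. Short features stood high in Model 3 (rho −0.48), and rho was also negative in Model 1 (−0.16) and Model 2 (−0.25). Every library outside Model had a higher rho: −0.07 (QDG 1), −0.05 (WT 1), 0.12 (WT 3), 0.27 (QDG 3), 0.30 (QDG 2) and the value of WT 2. Comparisons that include Model therefore also compare libraries with unlike length trends. The recovered lengths were 16701 bases for Lrp2, 14935 for Cubn, 7342 for Dab2, 5504 for Slc9a3, 2627 for Aqp1 and 1843 for Amn, beside a median of 3712 bases over all features. With the length trend of every library taken out, the log2 difference of Model against WT was 0.50 for Amn (limma adjusted p = 0.124), −0.37 for Slc9a3 (limma adjusted p = 0.0875), 0.23 for Lrp2 and 0.20 for Cubn. In QDG against Model, the Slc9a3 and Dab2 groups still did not overlap after this removal, with log2 differences of 0.33 and 0.35, while those of Cubn did overlap (0.11). The part of length in each result was not tested further.

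Ratios between genes within a library do not change when all values of a library are multiplied by a common factor. A trend over length is not such a factor, and the ratios were not computed with that trend taken out. Of the 15 ratios between the 6 genes, 4 did not overlap between Model and WT, 4 between QDG and Model and 1 between QDG and WT. Among all ratios of 2 tested features the shares were 27.5%, 25.0% and 29.0% in the same order, so these counts were near or below the background. The ratio of Slc9a3 to Aqp1, singled out after its values were seen, was 0.0424, 0.0431 and 0.0499 in QDG, 0.0335, 0.0293 and 0.0337 in Model and 0.0494, 0.0558 and 0.0486 in WT. Model lay below both other groups. The ratio of Lrp2 to Dab2, singled out in the same way, was 1.75, 1.82 and 1.70 in QDG, 2.05, 2.42 and 1.95 in Model and 1.58, 1.79 and 1.89 in WT, with Model above both other groups. The remaining ratios without overlap were Cubn to Dab2 and Amn to Slc9a3, with Model above WT, and Amn to Slc9a3, with QDG above WT. In QDG against Model they were Cubn to Amn, with QDG higher, and Amn to Dab2, with QDG lower. No test was attached to these ratios.

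**Figure D4:**
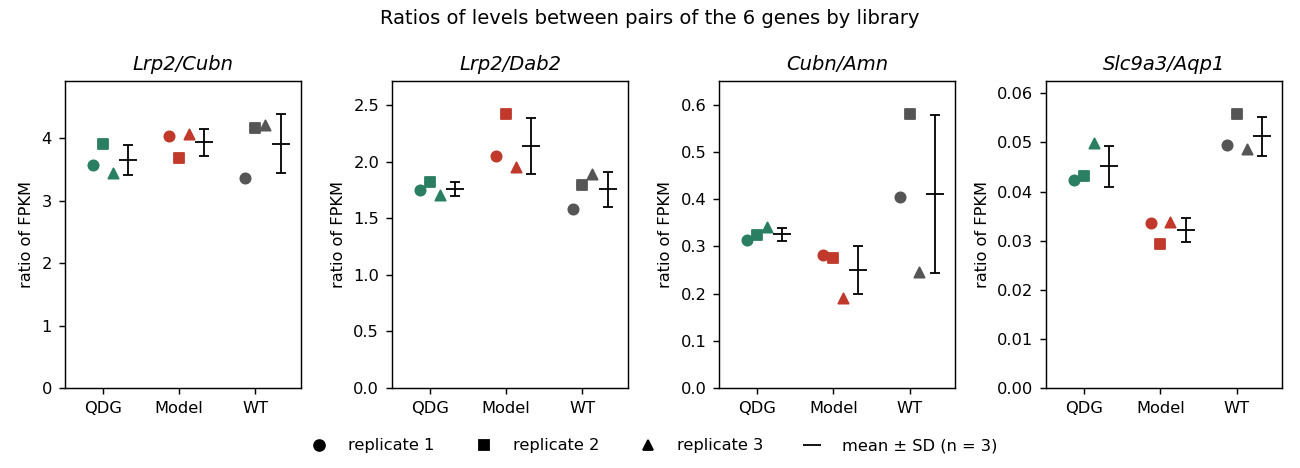
Ratio of FPKM between pairs of the 6 genes in every library, with the mean and SD of each group beside the points. The ratio of Lrp2 to Cubn lies between 3.37 and 4.21 throughout, and the ratio of Slc9a3 to Aqp1 lies between 0.0293 and 0.0337 in Model, below all QDG and WT libraries.

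The feature most like each gene over the 9 libraries is given by identifier for 4 of the 6, with no p-value, because each was the highest of 6665. For Amn it was ENSMUSG00000033726 (Pearson's r 0.995, Spearman's rho 0.97), with a log2 difference of 0.58 for Model against WT (limma adjusted p = 0.0835). For Slc9a3 it was ENSMUSG00000039304 (r 0.966, rho 0.93), which averaged 5.95 FPKM in Model and 10.2 FPKM in WT and was lower in Model by 0.71 on the log2 scale (limma adjusted p = 0.0497). The next most like Slc9a3, ENSMUSG00000030216, had a log2 difference of −0.25 (limma adjusted p = 0.131). For Lrp2 it was ENSMUSG00000046985 (r 0.977, rho 0.87) and for Aqp1 ENSMUSG00000054619 (r 0.961, rho 0.95), and neither passed in Model against WT (limma adjusted p = 0.928 and 0.395). Each feature was picked for following its gene over these same libraries, so its difference between groups follows from that choice and is no separate evidence. The points of each correlation share their library, its scaling and its length trend, and nothing follows from it about function or control.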

How the data were processed

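The members and lists were chosen with earlier results of these data known. Per the labels' protocols, RNA was extracted with Trizol, depleted of ribosomal RNA and made into NEBNext Ultra libraries; the submitters' processing notes name limma, and aligner, counter, build and annotation are not named there. The authors deposited, for each feature and sample, a value without a unit, which was read as FPKM because the deposited values move in steps of whole reads over length and library total: whole reads were recovered for all 17862 features (tolerance 0.0001 read or 2e-07 of the value), and 99.9% of the lengths came out whole within 0.05 base. The implied totals were not whole numbers and were 0.938 to 1.11 times the recovered reads, so the deposited values include a scaling factor between libraries whose method is not given. Single reads and read pairs cannot be told apart.

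Features that averaged 1 FPKM or more (12187) were fitted as log2(FPKM + 1) with limma 3.58.1 (R 4.3.3) with an intensity trend, all 9 samples sharing 1 estimate of the spread. P-values are two-sided, with Benjamini-Hochberg adjustment per comparison. Fold changes are on this scale, which understates low values. The procedure was also run on simulated data with independent noise for each feature and no trend over length. That run therefore cannot show how such trends affect the results. All 6 genes were named; further list members were to be named by smallest adjusted p but matched no identifier, and the most alike features were ranked by Pearson's r. Alternatives changed the pseudocount (0.1), the filter (none, or a mean of 5 FPKM), the scaling (quantile), the groups fitted, a replicate block, the length trend (lowess) and the test (limma voom on the recovered reads, with median-ratio or total-read scaling), and left out each library. Same-group libraries differed by more than counting noise (chi-square per degree of freedom of 16.0 to 97.3).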

Additional observations from a re-analysis of the deposited data

How the results depend on the processing

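Over 18 alternatives for each of 18 differences (6 genes, 3 comparisons), 299 of 324 values kept their sign and side of the threshold, 20 turned sign and 5 passed it. Some alternatives cannot move a difference, only its p-value. These were the changed filters, the fit of only the groups compared, the replicate block and leaving out a library of the third group. The passes were those given for Amn and Slc9a3 in Model against WT, and Amn with a replicate block (limma adjusted p = 0.0486). In Model against WT, Lrp2 turned to −0.19 (quantile), to −0.0013 and −0.0024 (voom, median ratio and total reads) and ran from −0.12 (without WT 1) to 0.27 (without WT 2) with a library left out. Cubn turned to −0.12 (quantile) and to −0.0158 and −0.0157 (voom), and ran from −0.11 (without WT 3) to 0.20 (without WT 2). In QDG against Model, Lrp2 turned to −0.0021 and Amn to 0.0025 after removal of the length trend, and quantile normalization gave 0.0377 for Amn and 0.0592 for Aqp1. With a library left out, Amn ran from −0.31 (without Model 2) to 0.045 (without Model 3) and Aqp1 from −0.27 (without Model 3) to 0.063 (without Model 2). In QDG against WT, Slc9a3 ran from −0.0872 (without WT 3) to 0.0105 (without WT 1). The causes were not tested.

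The number of features called in Model against WT was 963, with 144 in a fit of only the 2 groups, 533 with a replicate block and 195 (without Model 3) to 1529 (without WT 3) with a library left out. In QDG against Model it was 0, with 1 in a fit of only the 2 groups and 0 to 3 (without Model 1) with a library left out. In QDG against WT it was 301, with 516 after quantile normalization, 486 in a fit of only the 2 groups, 530 after removal of the length trend, 154 with a replicate block and 39 (without QDG 2) to 775 (without WT 3) with a library left out. Samples share only a replicate number: deviations of same-numbered samples correlated between −0.33 and 0.14, and not every sample correlated best with its own number. Group means of the 6 genes moved by less than 1 SD in 69 of 72 alternatives. Leaving out 1 of 3 libraries cannot move their mean by 1 SD, so only quantile normalization could. The exceptions were Lrp2 and Amn in QDG and Aqp1 in WT (113, 95.6 and 493 FPKM after quantile normalization). Counting error was an SD of at most 2.17%, and the 95% intervals between 3 samples a group reached 0.27 (Slc9a3) to 0.47 (Dab2) on either side of a log2 difference.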
